A study of Mus musculus with 12 samples.

Results

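The mouse genome holds 4 miR-15/16 precursor genes at 2 loci, Mir15b and Mir16-2 on chromosome 3 and Mir15a and Mir16-1 on chromosome 14. They were chosen by gene symbol as the family whose human counterpart at 1 of the 2 loci is deleted in chronic lymphocytic leukemia (CLL), and for each symbol the transcript cluster with the highest mean over the arrays was taken. Of 65956 transcript clusters on the array, 3 carried Mir15a, Mir15b or Mir16-2 as their single symbol. Mir16-1 was named on 1 cluster that also lists Dleu2, the long non-coding RNA gene that hosts Mir15a and Mir16-1, so the value of that cluster cannot be assigned to Mir16-1 and is given as the shared Dleu2/Mir16-1 cluster.

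RNA of bone marrow monocytes and macrophages from 12 mice was hybridised to 1 array each. All mice were Rag2-/-gamma c-/- on a BALB/c background, a strain that lacks its own B, T and natural killer cells. The groups were MEC1 mice and mice without MEC1 at 21 days, aged 11 weeks, and MEC1 mice and mice without MEC1 at 31 days, aged 13 weeks, with 3 mice in each. MEC1 is an established human B cell line derived from CLL, so the leukemia in these mice is a xenograft that grows without mouse lymphocytes. The RNA is bulk RNA, in which fewer cells of a type and less RNA per cell cannot be told apart.

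A microRNA is cut from a hairpin within a longer transcript by Drosha in the nucleus and Dicer in the cytoplasm, and the mature strand is loaded into an Argonaute protein. Bases 2 to 8 of the mature strand, the seed, pair with target messenger RNAs, which are then repressed. In human CLL, MIR15A and MIR16-1 are known as tumour suppressors that repress BCL2, a survival gene, and several cyclins that drive the cell into division. Mir15b and Mir16-2 lie in an intron of Smc4, a condensin subunit that folds chromosomes for mitosis. An array probe for a precursor can read the hairpin or the transcript around it, so the values below are levels of precursor sequence and not of mature microRNA.

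The mature sequences are shown first because they tell which members an array or a target site could distinguish. They come from RefSeq on GRCm38.p6, run 5′ to 3′, and have the seed in capitals.
miR-15b-5p (chr3:69009775-69009796, plus strand): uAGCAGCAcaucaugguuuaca
miR-16-5p of Mir16-2 (chr3:69009918-69009939, plus strand): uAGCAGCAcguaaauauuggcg
miR-15a-5p (chr14:61632075-61632096, minus strand): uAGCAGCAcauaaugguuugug
miR-16-5p of Mir16-1 (chr14:61631936-61631957, minus strand): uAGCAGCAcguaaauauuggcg
All 4 mature sequences share the seed. The Mir16-2 and Mir16-1 products are identical at 22 of 22 bases. Mature miR-15b-5p and miR-15a-5p are identical at 18 of 22, and they differ by C12A, A20G, C21U and A22G, counted from the 5′ end with the miR-15b base first. The miR-16 sequence is identical to miR-15b-5p at 14 of 22 bases and to miR-15a-5p at 16 of 22.

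The hairpins differ more than the mature strands do. RefSeq hairpins were found for 3 of the 4 members and are given with the mature 5p strand in capitals.
Mir15b (chr3:69009772-69009835, plus strand): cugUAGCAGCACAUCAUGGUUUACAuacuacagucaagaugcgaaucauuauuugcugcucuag
Mir16-2 (chr3:69009902-69009996, plus strand): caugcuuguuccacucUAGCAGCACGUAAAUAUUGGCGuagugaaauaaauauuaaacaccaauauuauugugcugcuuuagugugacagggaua
Mir16-1 (chr14:61631880-61631972, minus strand): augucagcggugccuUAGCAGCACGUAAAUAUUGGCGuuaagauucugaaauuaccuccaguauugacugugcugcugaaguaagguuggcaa
The longest run of bases shared by the Mir16-1 and Mir16-2 hairpins is 23 bases, and the longest shared by the Mir15b hairpin with either is 9. On chromosome 3, 66 bases separate the end of the Mir15b hairpin from the start of the Mir16-2 hairpin. Probes within the mature miR-16 sequence would read both miR-16 genes.

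Across the arrays, the hybridisation controls, which are labelled transcripts added at a fixed amount, were higher on every MEC1 array than on every array without MEC1. Their mean was 11.80 to 12.04 in MEC1 mice and 10.71 to 10.87 in mice without MEC1 at 21 days, and 12.15 to 13.18 in MEC1 mice and 10.47 to 10.70 in mice without MEC1 at 31 days. MEC1 replicate 3 at 31 days stood farthest out, at 13.18. The poly-A controls moved the same way, with a mean of 7.64 to 7.80 in MEC1 mice and 7.0 to 7.14 without MEC1 at 21 days, and 7.84 to 8.64 in MEC1 mice and 6.32 to 7.60 without MEC1 at 31 days. As for the labelled cell type, 9 monocyte and macrophage markers were measured, and their mean log2 level was 11.64 to 12.05 in MEC1 mice and 12.51 to 12.75 without MEC1 at 21 days, and 10.26 to 11.89 in MEC1 mice and 12.77 to 12.86 without MEC1 at 31 days. Neutrophil markers, 11 of them, were also well above the array median, with means of 13.42 to 13.72 in MEC1 mice and 13.18 to 14.08 without MEC1 at 21 days and 11.97 to 14.22 in MEC1 mice and 14.00 to 14.32 without MEC1 at 31 days, and 3 of them fell at that age and none at 21 days. The markers therefore do not set monocytes and macrophages apart from neutrophils in these samples. Of the monocyte and macrophage markers, 1 fell at 21 days and 8 at 31 days, and of 10 erythroid markers 5 and 10 fell, where 2.51% of all tested clusters fell at 21 days and 21.1% at 31 days. Each list was followed as the mean log2 level of its markers per mouse, which for the erythroid markers was 6.39 to 9.61 in MEC1 mice and 9.64 to 11.17 without MEC1 at 21 days, and 5.21 to 5.87 in MEC1 mice and 10.69 to 11.23 without MEC1 at 31 days. Of the B cell markers, 4 were tested; Pax5, a B-lineage transcription factor, rose at 21 days, and Pax5 and Cd79a rose at 31 days, the call of Cd79a being lost without MEC1 replicate 3 (limma adjusted p = 0.0606). The mean log2 level of the 5 measured B cell markers, tested or not, was 4.97 to 5.15 in MEC1 mice and 4.44 to 4.52 without MEC1 at 21 days. At 31 days it was 5.05 to 5.56 in MEC1 mice and 4.44 to 4.60 without MEC1. The part of human RNA, of these other cells and of the labelling or hybridisation in the precursor values was not tested, beyond the fit with a hybridisation-control covariate.

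The member clusters of the 2 loci changed differently in MEC1 mice. Mir16-2 and Mir15b were higher with MEC1 at both ages, the shared Dleu2/Mir16-1 cluster was lower at both ages, and Mir15a did not pass the test at either. The shared cluster lists a host gene, and Smc4, the host gene on chromosome 3, did not rise either. Its log2 change was -0.40 at 21 days, not called, and -1.83 at 31 days. Whether transcription of the 2 loci differed was not tested. A linear model over the 12 arrays was fitted with limma, which called a cluster changed at a Benjamini-Hochberg adjusted p under 0.05 over 37240 tested clusters. At 21 days, 2 of the 4 clusters rose and 1 fell, where the share of all tested clusters called was 1.83% for a rise and 2.51% for a fall. At 31 days the counts were again 2 and 1, against a background of 22.6% for a rise and 21.1% for a fall, so a call at 31 days sets a cluster apart far less than a call at 21 days.

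Mir16-2 is 1 of the 2 genes that encode miR-16. At 21 days it had a log2 level of 10.82, 9.61 and 8.52 in MEC1 mice, against 5.62, 6.58 and 5.97 in mice without MEC1. Its level at 31 days was 8.29, 9.78 and 10.23 in MEC1 mice, against 6.02, 6.16 and 5.59 in mice without MEC1. Every MEC1 mouse lay above every mouse without MEC1, a separation that 14.9% of all tested clusters showed in this direction at 21 days and 31.2% at 31 days. The MEC1 mice also differed more among themselves, with an SD of 1.15 at 21 days and 1.02 at 31 days, against 0.486 and 0.297 without MEC1.

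The rise of Mir16-2 was 12.1-fold at 21 days (log2 change 3.59, SE 0.584, limma adjusted p = 0.0112, n = 3 in each group). It was 11.4-fold at 31 days (log2 change 3.51, SE 0.584, limma adjusted p = 0.00163). Among 650 tested microRNA precursor clusters, this change ranked 1st from the highest at 21 days and 4th at 31 days. Clusters with a level within 0.5 log2 of Mir16-2 in mice without MEC1 changed less, by a median of -0.20 (4191 clusters, 21 days) and -0.32 (4361 clusters, 31 days). The microRNA precursors within the same window had medians of 0.06 (97 clusters) and 0.29 (98 clusters). The call at both ages held when each of the 12 arrays was left out in turn, with changes of 3.01 to 4.16 at 21 days and 3.11 to 4.08 at 31 days.

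Mir15b encodes miR-15b, whose seed is that of miR-16. At 21 days its log2 level was 7.70, 6.47 and 6.01 in MEC1 mice, against 3.47, 4.76 and 3.41 in mice without MEC1, and the groups did not overlap. The 31-day levels were 5.54, 7.04 and 8.08 in MEC1 mice, against 5.86, 4.86 and 4.61 in mice without MEC1. There the groups overlapped, since the lowest MEC1 mouse lay below the highest mouse without MEC1. Mir15b was above the array median on 6 of 6 MEC1 arrays and on 4 of 6 arrays without MEC1. It lay below the median in replicates 1 and 3 without MEC1 at 21 days.

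Mir15b rose at 21 days (log2 change 2.85, SE 0.656, limma adjusted p = 0.0396) and at 31 days (log2 change 1.78, SE 0.656, limma adjusted p = 0.0479, 3.43-fold). No fold is given for 21 days, since only 1 of the 3 mice without MEC1 lay above the array median there. The 31-day change ranked 33rd of 650 precursors. Both calls were close to the threshold and rested on single mice. The 21-day call was lost without either of MEC1 replicates 1 and 2 at 21 days, any of the 3 mice without MEC1 at 21 days, MEC1 replicate 2 at 31 days, or replicates 2 and 3 without MEC1 at 31 days, and the change ran between 2.36 and 3.29. The 31-day change was 1.18 without MEC1 replicate 3, 1.70 without MEC1 replicate 2, 1.65 without replicate 2 and 1.53 without replicate 3 of the mice without MEC1, and none of these passed. The 31-day call was also lost without 21-day mice, namely MEC1 replicate 2 and replicates 1 and 3 without MEC1. Taken as the mean of both days, the change of Mir15b was 2.31 (SE 0.464, limma adjusted p = 0.00324, where 24.9% of all clusters rose and 23.3% fell), and this passed with any 1 array left out (2.01 to 2.65).

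**Figure D1:**
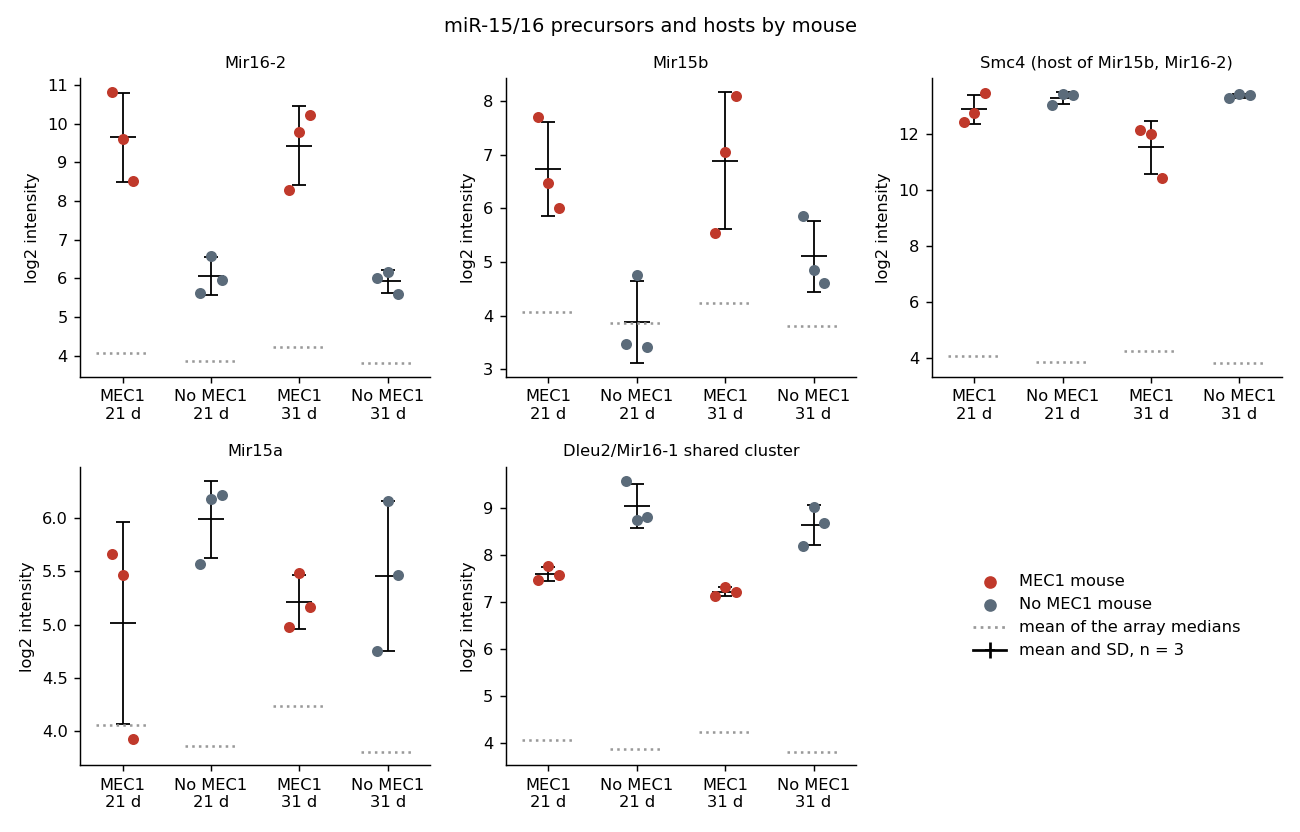
Log2 intensity of the members and of Smc4 in each mouse (1 point per mouse, MEC1 in red and no MEC1 in grey, with mean and SD of 3 mice, and the mean of the array medians as a dotted line). Mir16-2 lay between 8.29 and 10.82 in all 6 MEC1 mice and between 5.59 and 6.58 in all 6 mice without MEC1, while the shared Dleu2/Mir16-1 cluster lay lower in MEC1 mice.

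Mir15a, on chromosome 14, encodes miR-15a. At 21 days its log2 level was 5.66, 5.46 and 3.93 in MEC1 mice, against 5.57, 6.18 and 6.21 in mice without MEC1. Its 31-day levels were 4.98, 5.48 and 5.16 in MEC1 mice, against 4.75, 6.16 and 5.46 in mice without MEC1. The groups overlapped at both ages. The log2 change was -0.97 at 21 days (95% confidence interval -1.97 to 0.03, limma adjusted p = 0.226) and -0.25 at 31 days (-1.25 to 0.75, limma adjusted p = 0.666), so a rise as large as that of either chromosome 3 member lay outside both intervals. Over fits that left out 1 array each, the 21-day change lay between -1.29 and -0.43, and it was -0.43 without MEC1 replicate 3, the mouse at 3.93. Mir15a ranked 623rd and 562nd of 650 precursors.

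The shared cluster lists Dleu2, the host gene, and Mir16-1 together. Whether its probes read 1 or both was not given in the sources used here. At 21 days its log2 level was 7.46, 7.76 and 7.57 in MEC1 mice, against 9.58, 8.74 and 8.80 in mice without MEC1. At 31 days it was 7.12, 7.31 and 7.21 in MEC1 mice, against 8.20, 9.03 and 8.68 in mice without MEC1. Each MEC1 mouse lay below each mouse without MEC1, a separation that 13.7% of all tested clusters showed in this direction at 21 days and 28.4% at 31 days. The cluster fell 2.72-fold at 21 days (log2 change -1.44, SE 0.253, limma adjusted p = 0.0155) and 2.68-fold at 31 days (log2 change -1.42, SE 0.253, limma adjusted p = 0.00222). The 21-day call was lost without MEC1 replicate 1 (log2 change -1.38, limma adjusted p = 0.065). Clusters of a like level had median changes of -0.42 and -0.92.

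No member changed differently at the later age by the test of the difference itself. The change at 31 days minus that at 21 days was -0.08 for Mir16-2 (SE 0.825, limma adjusted p = 0.97), -1.07 for Mir15b (SE 0.928, adjusted p = 0.601), 0.72 for Mir15a (SE 0.643, adjusted p = 0.611) and 0.02 for the shared cluster (SE 0.358, adjusted p = 0.984). These intervals were wide, for example -3.12 to 0.98 for Mir15b, and 0.00269% of all tested clusters passed this test. Time alone moved no member past the threshold, where 0.226% of clusters passed with MEC1 and 0.00806% without MEC1. Between 31 and 21 days, Mir15b differed by 0.16 in MEC1 mice (limma adjusted p = 0.919) and by 1.23 in mice without MEC1 (SE 0.656, limma adjusted p = 0.855).

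The 2 loci were then compared within each mouse, as the log2 level of a chromosome 3 member minus that of a chromosome 14 cluster. That cluster was Mir15a for Mir15b and, for Mir16-2, the shared Dleu2/Mir16-1 cluster, which also lists the host gene. Such a difference is free of any shift that adds the same amount to all clusters of an array, but not of a shift that varies with level. Clusters at the level of Mir16-2 without MEC1 had median changes of -0.20 at 21 days and -0.32 at 31 days. At the level of the shared cluster the medians were -0.42 and -0.92. An exact two-sided permutation test exchanged mice within each age, which allows 400 arrangements and a smallest p of 0.005, and p-values were adjusted over 4 pairs. Mir16-2 minus the shared Dleu2/Mir16-1 cluster changed by 4.99 with MEC1 over both ages (exact permutation p = 0.005, adjusted p = 0.0133), with 5.04 at 21 days and 4.93 at 31 days and no overlap at either. Each of these 2 clusters already separated the groups at both ages, in opposite directions. Their difference therefore had to reach the smallest p, which adds nothing to the 2 separate calls. Mir15b minus Mir15a changed by 2.92 (exact permutation p = 0.01, adjusted p = 0.0133), with 3.82 at 21 days, where the groups did not overlap, and 2.03 at 31 days, where they did. Within 1 age the smallest p that 20 arrangements allow is 0.1, so no single age could pass.

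Within the chromosome 3 locus, Mir16-2 changed by 1.24 more than Mir15b (exact permutation p = 0.01, adjusted p = 0.0133). That difference was 0.75 at 21 days, where the groups overlapped, and 1.73 at 31 days, where they did not. Within the chromosome 14 locus, the shared cluster minus Mir15a changed by -0.82 (exact permutation p = 0.065, adjusted p = 0.065). Without MEC1 replicate 3 at 21 days, in which Mir15a was lowest, that last pair passed (adjusted p = 0.015).

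The 2 chromosome 3 members followed each other from mouse to mouse. Pearson's r of their log2 levels was 0.90 over the 12 arrays and 0.89 after the mean of each group was taken away, while Mir15a and the shared cluster had 0.53 and 0.19. These are descriptions of arrays that share their scaling and their hybridisation. Among the MEC1 mice of each age the order of Mir16-2 and of Mir15b was also the order of the hybridisation controls, with replicate 1 highest at 21 days and replicate 3 highest at 31 days. When the level of the hybridisation controls was added to the model as a covariate, the change of Mir16-2 was 1.60 at 21 days (limma adjusted p = 0.561) and -0.02 at 31 days (adjusted p = 0.999), and that of Mir15b was 0.19 and -2.93 (adjusted p = 0.963 and 0.531). The shared Dleu2/Mir16-1 cluster then had -1.16 and -0.93 (adjusted p = 0.41 and 0.759), and Smc4, the host gene on chromosome 3, had 1.44 and 1.43 (adjusted p = 0.25 and 0.528). Group membership held 92.1% of the variance of these controls, so their level and MEC1 cannot be told apart, and under this covariate 4 clusters in all passed at 21 days and 7 at 31 days.

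The changes of Mir15b and Mir16-2 were set beside those of all measured precursor clusters. The median log2 change of the 650 tested microRNA precursor clusters was 0.18 at 21 days and 0.48 at 31 days, against 0.02 and 0.04 for all tested clusters. The precursor median per array was 4.76 to 5.31 in MEC1 mice and 4.75 to 5.29 without MEC1 at 21 days, with overlapping groups, and 5.19 to 5.54 in MEC1 mice and 4.70 to 4.84 without MEC1 at 31 days, with no overlap. The median of all clusters per array moved too, with 3.93 to 4.20 in MEC1 mice and 3.82 to 3.93 without MEC1 at 21 days, and 4.13 to 4.40 in MEC1 mice and 3.80 to 3.81 without MEC1 at 31 days. At 21 days 2.15% of precursors rose and 1.23% fell, or 14 and 8 clusters, and at 31 days 33.4% rose and 4.15% fell. With 1 array left out, the number that rose at 21 days ran from 2, without MEC1 replicate 1 or without replicate 2 of the mice without MEC1, to 48 without MEC1 replicate 3, and the number that fell from 1 to 10. At 31 days 217 rose, and 129 without MEC1 replicate 3. When every array was centred on the median of its precursor clusters, Mir16-2 kept a rise of 3.46 at 21 days and 2.94 at 31 days (limma adjusted p = 0.00733 and 0.00182). Mir15b then had 2.72 at 21 days (adjusted p = 0.036) and 1.21 at 31 days (adjusted p = 0.125).

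**Figure D2:**
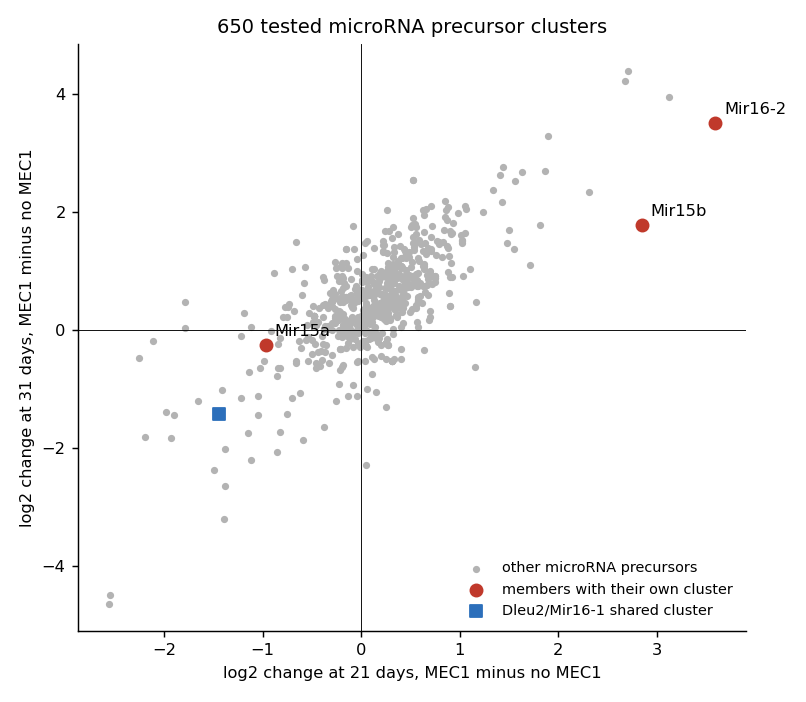
Log2 change with MEC1 at 21 days (horizontal) and 31 days (vertical) of the 650 tested microRNA precursor clusters, 1 point each, with the members in red and the shared Dleu2/Mir16-1 cluster as a blue square. Mir16-2 lay at 3.59 and 3.51 and Mir15b at 2.85 and 1.78, and Mir15a and the shared cluster lay below 0 on both axes.

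Smc4, the host gene of Mir15b and Mir16-2, was not called higher at either age. At 21 days its log2 level was 12.43, 12.76 and 13.45 in MEC1 mice, against 13.04, 13.43 and 13.38 in mice without MEC1. By 31 days its level was 12.13, 12.00 and 10.44 in MEC1 mice, against 13.28, 13.41 and 13.38 in mice without MEC1. The groups overlapped at 21 days, when Smc4 changed by -0.40 (SE 0.400, limma adjusted p = 0.549), and did not overlap at 31 days, when it fell 3.56-fold (log2 change -1.83, SE 0.400, limma adjusted p = 0.00557). Within each mouse, Mir16-2 minus Smc4 changed by 4.67 and Mir15b minus Smc4 by 3.43 over both ages (exact permutation p = 0.005 and adjusted p = 0.005 for each of these 2 pairs, the smallest p allowed, and chosen after the data were seen). No group overlapped in either difference, and the Mir15b difference was 3.25 at 21 days and 3.61 at 31 days.

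Smc4 belongs to the genes of dividing cells, and proliferation markers moved with it. Of 15 measured proliferation markers, none passed at 21 days and 15 fell at 31 days, with a median log2 change of -2.03, where 2.51% of all tested clusters fell at 21 days and 21.1% at 31 days. Their mean log2 level per mouse was 10.81 to 12.05 in MEC1 mice and 11.30 to 12.14 without MEC1 at 21 days, and 9.05 to 10.53 in MEC1 mice and 11.92 to 12.13 without MEC1 at 31 days. Their part in the fall of Smc4 was not tested.

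A chosen list of genes around each locus was followed, with any further RefSeq gene within 100 kb of the precursors on GRCm38.p6. The chosen genes were not held to that distance, so a gene called a neighbour here can lie farther away. On chromosome 3, none of the 6 tested neighbours passed at 21 days. At 31 days Ift80, a subunit of the machinery that builds cilia, changed by -1.43 (limma adjusted p = 0.00297), and Trim59, a RING-finger protein, by -1.10 (adjusted p = 0.00365). A cluster shared by Iqschfp and Schip1 rose by 0.83 (adjusted p = 0.00287). Kpna4, an importin that carries proteins into the nucleus, had -0.22 (adjusted p = 0.223), and Gm22009 had -0.82 (adjusted p = 0.0846). On chromosome 14, none of the neighbours other than the shared Dleu2/Mir16-1 cluster passed at 21 days. At 31 days Kcnrg, a regulator of potassium channels, rose by 0.53 (adjusted p = 0.016), and Rnaseh2b, a subunit of ribonuclease H2, fell by 0.58 (adjusted p = 0.0277). The Rnaseh2b call was lost in 5 of 12 fits that left out 1 array (adjusted p up to 0.0964, without MEC1 replicate 3 at 31 days) and the Kcnrg call in 1 (adjusted p = 0.0641, without replicate 3 of the mice without MEC1 at 31 days). Trim13, a ubiquitin ligase, had -0.13 at 21 days and 0.14 at 31 days, Spryd7 had 0.32 and 0.34, and Ebpl had -0.18 and -0.32, and none of these passed.

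**Figure D3:**
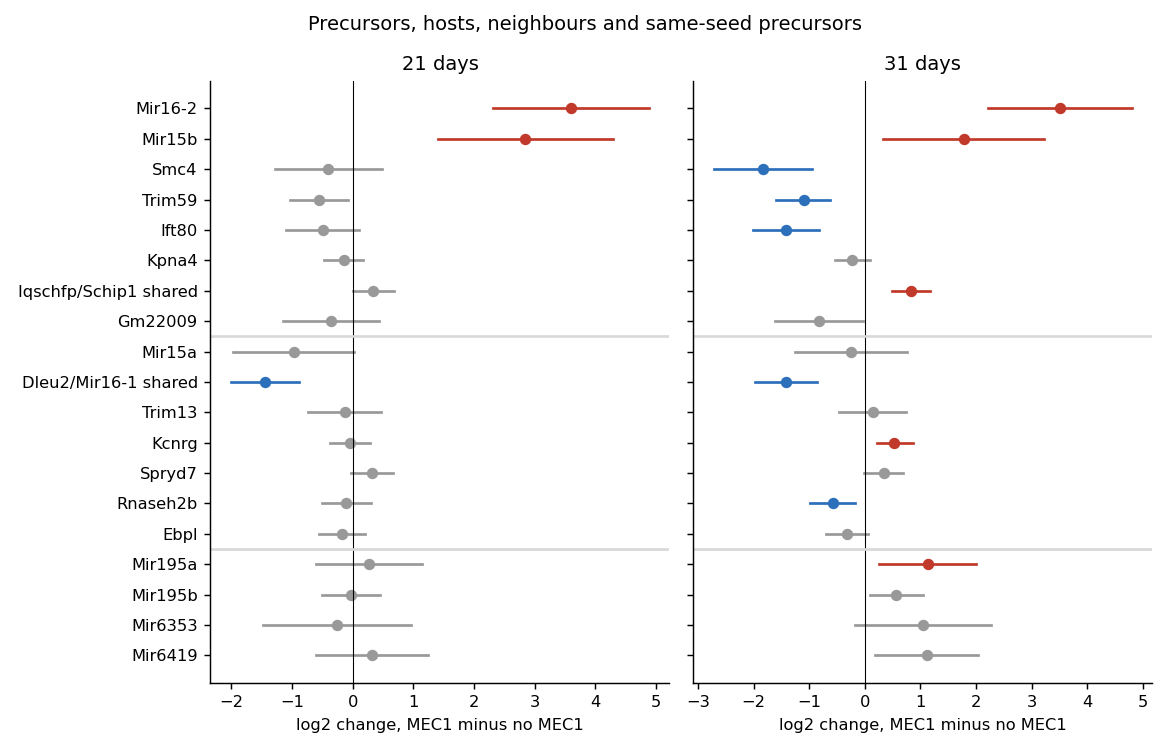
Log2 change with MEC1 (point) and its 95% confidence interval (line) at 21 and 31 days for the chromosome 3 locus (top block), the chromosome 14 locus (middle block) and other precursors with the same seed (bottom block). Red marks a rise and blue a fall at a limma adjusted p under 0.05, grey marks no call, and within the chromosome 3 block red is seen for Mir16-2 and Mir15b at both ages and for the Iqschfp/Schip1 shared cluster at 31 days.

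Other microRNAs carry the same seed and could act on the same sites. Of 1738 mature mouse microRNAs in RefSeq, 11 have it, from 11 genes. One of the 7 genes that are not members is Mir195a, whose product is shown for its likeness to miR-16.
miR-195a-5p (chr11:70235062-70235082, plus strand): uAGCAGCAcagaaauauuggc
A cluster with a single symbol was taken where there was one. Of these 7 genes, 5 then had a tested cluster, 1 of them shared with other genes, and the single-symbol clusters of Mir6342 and Mir497 stayed below the filter on dim clusters. Mir497 is also listed on a tested cluster shared with Mir497b. The mean log2 level of that cluster was 4.33 in MEC1 mice and 3.74 without MEC1 at 21 days. At 31 days it was 4.38 and 3.88, and it was not called at either age. None of the 5 passed at 21 days (median log2 change 0.17). At 31 days 1 rose, Mir195a, by 1.13 (SE 0.397, limma adjusted p = 0.0398), and the median was 1.04, set beside 33.4% of all precursors called higher and their median of 0.48. The Mir195a call was lost in 6 of 12 fits with 1 array left out, with changes of 0.75 (without MEC1 replicate 3 at 31 days, adjusted p = 0.153) to 1.46. Mir195a had 7.06, 6.37 and 5.94 in MEC1 mice and 6.78, 5.83 and 5.93 in mice without MEC1 at 21 days, and 6.79, 6.21 and 7.63 in MEC1 mice and 5.42, 5.86 and 5.96 in mice without MEC1 at 31 days. Mir195b had 0.57 (adjusted p = 0.0536), Mir6419 had 1.11 (adjusted p = 0.0536), Mir6353 had 1.04 (adjusted p = 0.144), and the cluster that lists Mir322 had 0.31 (adjusted p = 0.159).

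The RNA levels of genes for the proteins that cut, export and load microRNAs were followed for comparison. Of 19 processing genes, 2 fell and none rose at 21 days, with a median log2 change of -0.35, where 2.51% of all clusters fell. That count ran from 0 to 5 with 1 array left out, and was 5 without MEC1 replicate 3 at 21 days. At 31 days 12 fell and none rose, with a median of -0.95, where 21.1% of all clusters fell and the median was 0.04. Clusters within 0.5 log2 of the shared Dleu2/Mir16-1 cluster in mice without MEC1 had lower medians, -0.42 at 21 days and -0.92 at 31 days. The processing genes were not matched for level. Ago2, the Argonaute that can cut targets, had 10.08, 10.62 and 11.67 in MEC1 mice and 11.63, 12.07 and 12.34 without MEC1 at 21 days, and 9.69, 9.38 and 8.74 in MEC1 mice and 11.86, 12.18 and 12.24 without MEC1 at 31 days. Its groups overlapped at 21 days (log2 change -1.22, limma adjusted p = 0.09) and did not at 31 days (log2 change -2.82, limma adjusted p = 0.000618).

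Dicer1, which releases the mature duplex from the hairpin, had 8.72, 8.70 and 8.84 in MEC1 mice and 9.02, 9.33 and 9.08 without MEC1 at 21 days. At 31 days it had 8.50, 8.39 and 7.61 in MEC1 mice and 9.77, 9.90 and 9.78 without MEC1, and it fell by 1.65 on the log2 scale (limma adjusted p = 0.000559). Drosha, the nuclear enzyme that frees the hairpin, fell by 1.36 at 31 days (adjusted p = 0.00237), and Xpo5, which exports the hairpin, fell by 1.87 (adjusted p = 0.00445). Khsrp, a binding protein that promotes cutting of some precursors, fell by 1.69 at 31 days. Tut7, which adds uridines to precursor ends, fell at both ages, by 1.47 (limma adjusted p = 0.0294) and 2.72. Tut4, of the same kind, fell by 0.76 at 21 days (limma adjusted p = 0.0444) and by 1.16 at 31 days (adjusted p = 0.00124). With 1 array left out, the 21-day call was lost in 5 of 12 fits for Tut7 (adjusted p up to 0.106, without MEC1 replicate 1 at 21 days) and in 10 of 12 for Tut4 (up to 0.126, without the same mouse), while the 31-day calls of both held in all 12.

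Genes reported as miR-15/16 targets were chosen from human and mouse work. Of 16 tested, 1 fell and none rose at 21 days (median log2 change -0.29), where 2.51% of all tested clusters fell and their median was 0.02. At 31 days 10 fell, 1 rose and 5 did not pass (median -1.38), where 21.1% of all clusters fell, 22.6% rose and the median was 0.04. Clusters at the level of the shared Dleu2/Mir16-1 cluster had medians of -0.42 at 21 days and -0.92 at 31 days. The targets were not matched for level. None of the 16 passed the test of the difference between the ages. Bcl2, the target for which the family is best known, had 6.60, 6.79 and 7.11 in MEC1 mice and 6.55, 6.93 and 6.73 without MEC1 at 21 days, with overlapping groups. Its 31-day levels were 6.06, 5.96 and 6.13 in MEC1 mice and 7.55, 7.05 and 7.37 without MEC1, a fall of 1.27 on the log2 scale with no overlap (limma adjusted p = 0.000847). At 21 days Bcl2 had a log2 change of 0.10 (limma adjusted p = 0.764). Whether the precursors bear on Bcl2 was not tested.

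Ccne1, cyclin E1 of the step into DNA synthesis, had 8.81, 8.15 and 7.48 in MEC1 mice and 11.61, 12.27 and 11.89 without MEC1 at 31 days, and fell 13.7-fold (log2 change -3.78, SE 0.625, limma adjusted p = 0.00161). At 21 days it had 8.59, 9.45 and 11.41 in MEC1 mice and 10.89, 11.40 and 12.22 without MEC1, and the groups overlapped (log2 change -1.69, adjusted p = 0.142). Cdk6, a kinase of early cell cycle entry, and its partner cyclin Ccnd3 fell at 31 days by 1.89 and 1.60 on the log2 scale (limma adjusted p = 0.00408 and 0.00166), beside the fall of all 15 proliferation markers given above. Jun and Myb, both transcription factors, fell by 3.06 and 2.54, and Rictor, a subunit of mTOR complex 2, by 1.78. Whether these falls bear on the precursors was not tested.

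Vegfa, a growth factor for blood vessels, was the only target called at 21 days. It had 8.57, 8.70 and 8.51 in MEC1 mice and 10.15, 10.12 and 10.01 without MEC1 at 21 days, a 2.83-fold fall (log2 change -1.50, SE 0.130, limma adjusted p = 0.000815). At 31 days it had 8.20, 8.10 and 8.25 in MEC1 mice and 8.42, 8.35 and 8.62 without MEC1 (log2 change -0.28, adjusted p = 0.1), and its level without MEC1 was lower at the later age. Fgfr1, a growth factor receptor, rose at 31 days, with 5.44, 5.42 and 5.65 in MEC1 mice and 4.18, 4.15 and 4.35 without MEC1 (log2 change 1.28, adjusted p = 0.000321). The other 5 tested targets did not pass at 31 days, Vegfa among them.

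**Figure D4:**
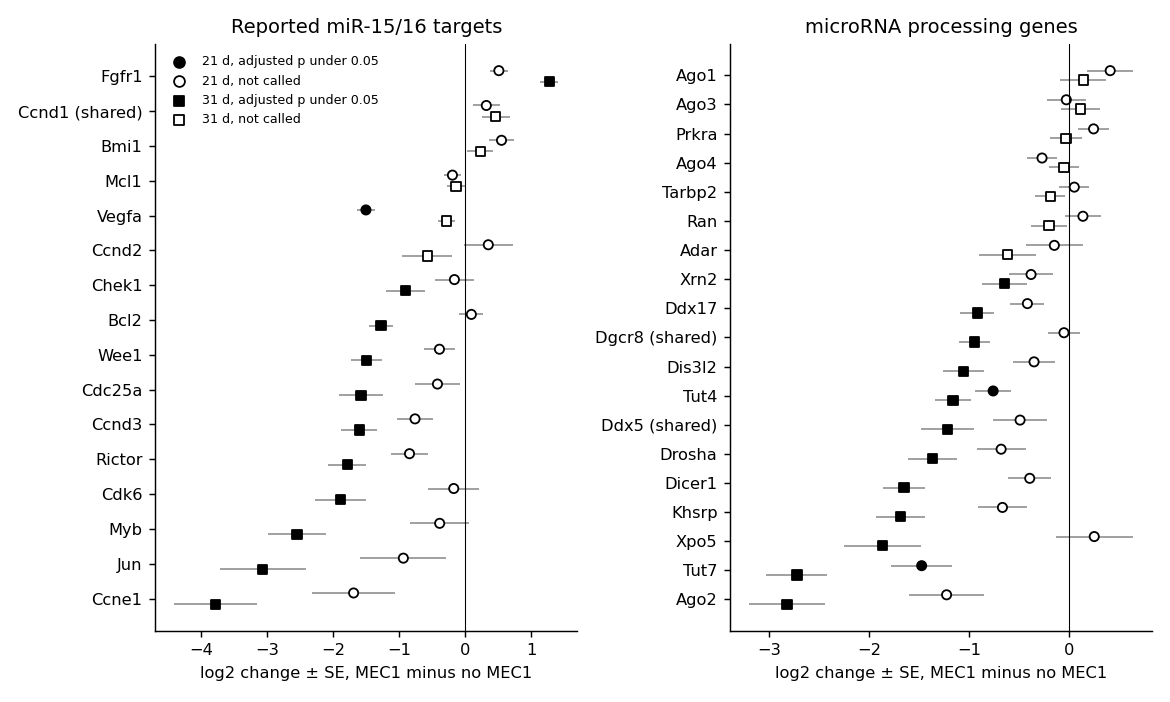
Log2 change with MEC1 (± SE) of 16 reported miR-15/16 targets and 19 microRNA processing genes at 21 days (circles) and 31 days (squares), filled where the limma adjusted p was under 0.05. Most filled symbols are squares left of 0, with 10 of 16 targets and 12 of 19 processing genes lower at 31 days, and Fgfr1 is the filled square right of 0.

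The sign of each member's change was the same under most settings, as the plot by setting shows. Under quantile normalization of the deposited values, Mir16-2 changed by 3.73 at 21 days and 4.01 at 31 days (limma adjusted p = 0.0215 and 0.00228), the shared cluster by -1.04 and -0.76 (adjusted p = 0.0583 and 0.0491), Mir15b by 2.88 and 2.13 (adjusted p = 0.0731 and 0.0599) and Mir15a by -0.79 and -0.25. Signs turned with the hybridisation-control covariate for Mir16-2 and Mir15b at 31 days, and for Mir15a at 31 days without replicate 2 of the mice without MEC1, where its change was 0.10.

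**Figure D5:**
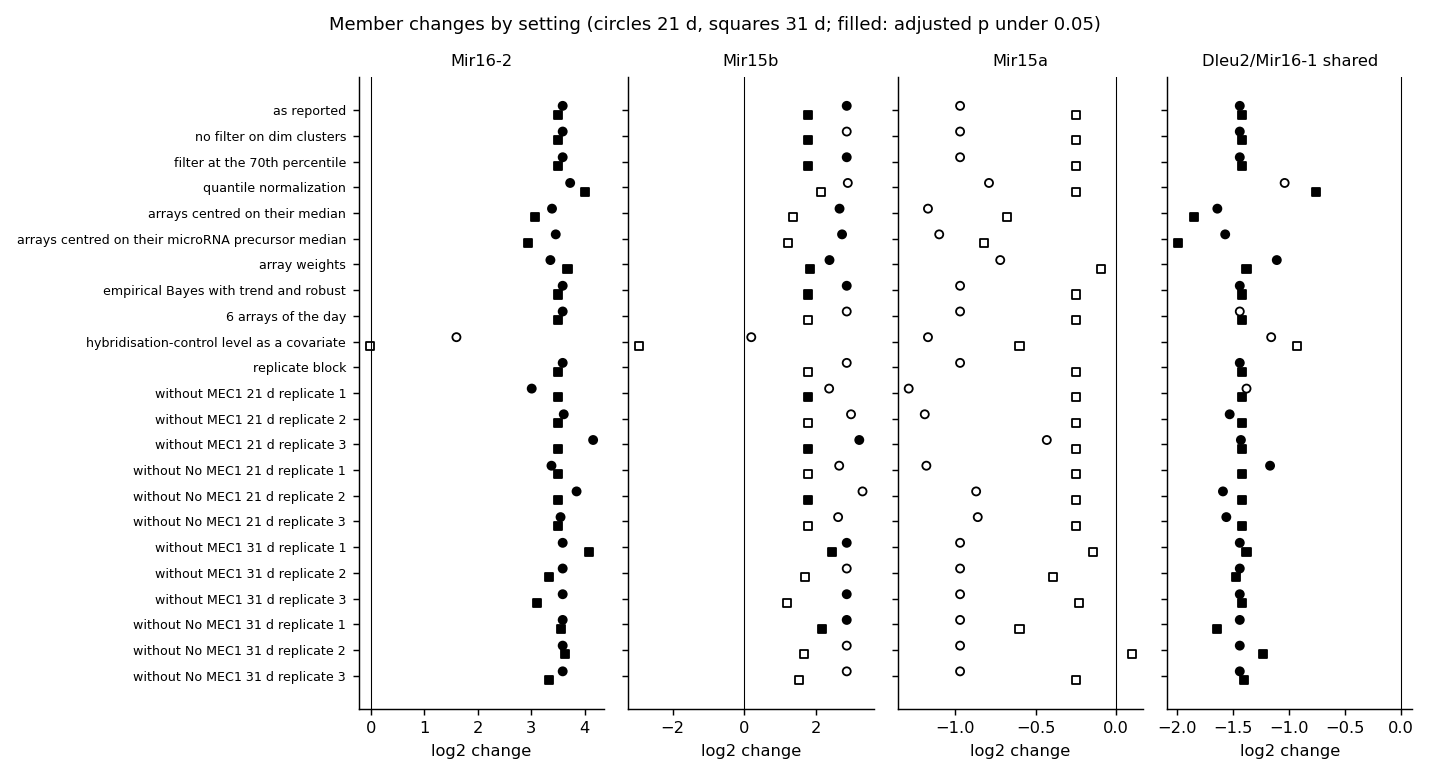
Log2 change with MEC1 of the members (columns) at 21 days (circles) and 31 days (squares) under each setting (rows), filled where the limma adjusted p was under 0.05. Mir16-2 is filled in all rows but the one that takes the hybridisation controls into the model, and Mir15b at 31 days is open in many rows.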

How the data were processed

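Each of 12 arrays held the marrow monocyte and macrophage RNA of 1 mouse, in 4 groups of 3 taken from the labels. The authors deposited log2 intensities per transcript cluster, made with RMA in Affymetrix Expression Console, per the submitters' processing notes, with versions not given in the sources used here. The table held 72688 features; 6732 controls were left out, and of 65956 transcript clusters 31258 had 1 symbol, 1492 several and 33206 none in the platform's table. The genome build of the array was not given in the sources used here, so gene positions were used for neighbours only, on RefSeq's GRCm38.p6.

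Clusters brighter than the array median on at least 3 arrays were tested, 37240 in all. Group means were fitted with limma 3.58.1 in R 4.3.3, with empirical Bayes and Benjamini-Hochberg adjustment over all tested clusters. On simulated data over 37240 clusters, changes of 1, 2 and 3 log2 units were recovered in 40.3%, 77.6% and 90.9% at 21 days, 34.3%, 77.6% and 97.0% at 31 days, and 64.2%, 91.0% and 100% for the mean of both days. Only 67, 67 and 66 clusters had these changes, and 5, 8 and 7 of 144, 147 and 177 calls were false. In the measured data 1615 clusters were called at 21 days and 16297 at 31 days. The rates therefore describe the simulation and are not the power of these comparisons. For arrays, their number limits the precision; p-values measure the spread between mice.

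The members and lists were chosen with earlier results of these data known. The text names all members and their neighbours, up to 6 genes per list with the largest change among those called, and 3 genes most alike each member; Bcl2, Vegfa, Fgfr1, Tut4, Cd79a and the same-seed precursors other than Mir195a were added after their values were seen. The comparisons with Smc4 were likewise added. Alternatives covered the filter on dim clusters, normalization, array weights, empirical Bayes settings, the arrays fitted, a covariate, a replicate block and leaving out each array.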

Additional observations from a re-analysis of the deposited data

How the results depend on the processing

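The rise of Mir16-2 and the fall of the shared Dleu2/Mir16-1 cluster at 31 days passed under every alternative but the hybridisation-control covariate; both Mir15b calls were lost under several. Signal over background limits Mir15b, which was below the array median on 2 of 6 arrays without MEC1. Without a filter, Mir15b at 21 days had 2.85 (adjusted p = 0.0541) and 30065 clusters passed at 31 days; the filter at the 70th percentile gave 10483. Quantile normalization gave -1.04 for the shared cluster at 21 days (adjusted p = 0.0583), 2.88 and 2.13 for Mir15b at 21 and 31 days (0.0731 and 0.0599), 0.28 for Mir16-2 at 31 minus 21 days, and 1066 and 10646 clusters. Centring arrays on their median moved the median change of all tested clusters to -0.18 and -0.39 and the share of calls that were higher to 23.3% and 16.9%, against 42.2% and 51.7% as deposited (quantile normalization gave 57.0% and 47.2%). It gave -0.92 for Mir15a over both days (0.0305), 1.35 for Mir15b at 31 days (0.0973) and -0.21 for the shared cluster at 31 minus 21 days. Centring on the precursor median moved the median change to -0.11 and -0.53 and the higher share to 42.8% and 10.5%, with -0.96 (0.0246), 1.21 (0.125) and -0.42 for those 3 results. Array weights gave -0.27 for the shared cluster and 0.32 for Mir16-2 at 31 minus 21 days, and 15923 clusters at 21 days. The 6 arrays of each day alone gave -1.44 for the shared cluster at 21 days (0.0582), 2.85 and 1.78 for Mir15b (0.0629 and 0.069) and 454 clusters at 21 days. The covariate gave -1.16, -0.93 and -1.05 for the shared cluster at 21 days, 31 days and over both (0.41, 0.759 and 0.581), 0.19, -2.93 and -1.37 for Mir15b (0.963, 0.531 and 0.719), 1.60, -0.02 and 0.79 for Mir16-2 (0.561, 0.999 and 0.864), and 4 and 7 clusters. Causes of these shifts were not tested, apart from the smaller number of arrays or larger number of clusters where the setting itself sets it. For the pairs, 1 age alone could not pass, with 5.04, 3.82 and 0.75 at 21 days (adjusted p = 0.2, 0.2 and 0.267) and 4.93, 2.03 and 1.73 at 31 days (0.133, 0.2 and 0.133), in the order given in the text.

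Replicate numbers recur across groups but mark separate mice. Same-numbered mice deviated together with correlations of 0.36, -0.17 and 0.42 at 21 days and -0.01, 0.16 and 0.02 at 31 days. The same-numbered mouse was the best match for replicates 1 and 3 at 21 days and for replicate 2 at 31 days. With 3 mice in a group, these correlations cannot show whether same-numbered mice shared a batch. With the replicate block, Mir15b had 2.85 and 1.78 (adjusted p = 0.0739 and 0.0773) and 831 clusters passed at 21 days; the other member calls were unchanged.

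With 1 array left out, clusters called ran from 333 to 2875 at 21 days and from 10556 to 16599 at 31 days, the shared cluster from -1.59 to -1.17 at 21 days and from -0.25 to 0.22 at 31 minus 21 days, its difference to Mir15a from -1.09 to -0.58, Mir15a from -1.29 to -0.43 at 21 days and from -0.60 to 0.10 at 31 days, Mir15b from 2.36 to 3.29 and from 1.18 to 2.45, and Mir16-2 at 31 minus 21 days from -0.65 to 0.50.

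Other genes changed sign as follows, most of them from values near 0 at 21 days. Quantile normalization gave 0.05 and 0.40 for Kpna4 at 21 and 31 days, 0.41 for Vegfa at 31 days, and at 21 days 0.19 for Rnaseh2b, 0.03 for Ebpl, 0.01 for Myb, 0.10 for Myc, 0.18 for E2f3 and 0.25 for Hdac3. Median centring gave -0.29 for Trim13 and -0.09 for Spryd7 at 31 days, -0.10 for Bcl2 at 21 days, and -0.03 and -0.12 for the Mir322 cluster. Array weights gave -0.02 for Trim13 at 31 days, and -0.22 for Xpo5, 0.07 for Mir195b, 0.41 for Mir6353 and -0.02 for Bcl2 at 21 days. The covariate gave, at 21 and 31 days, 1.44 and 1.43 for Smc4, 0.16 and 0.32 for Kpna4, 1.45 and 2.37 for Gm22009, 0.25 and 0.05 for Rnaseh2b, -0.78 and -0.74 for Mir195a, -1.56 and -2.22 for Mir6419, -0.32 and -0.55 for the Mir322 cluster, 1.68 and 1.56 for Jun, 1.41 and 0.63 for Myb, 1.34 and 0.79 for Cdk6, 0.51 and 0.16 for E2f3, and -0.50 and -0.77 for Cd79a; at 21 days 0.51 for Dicer1, 0.10 for Rictor, 0.04 for Ccnd3, 0.08 for Hdac3 and -0.05 for Bcl2; and at 31 days -0.58 for Mir195b and -1.09 for Mir6353. With 1 array left out, 21-day changes ran from -0.09 to 0.46 for Xpo5, -0.36 to 0.18 for Trim13, -0.10 to 0.01 for Kcnrg, -0.42 to 0.11 for E2f3, -0.31 to 0.07 for Hdac3, -0.24 to 0.04 for Rnaseh2b, -0.03 to 0.58 for Mir195a, -0.07 to 0.03 for Mir195b, -0.59 to 0.30 for Mir6353, -0.35 to 0.00 for Cdk6 and -0.04 to 0.21 for Bcl2.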

Other observations

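Genes known to act on miR-15/16 transcription in human or mouse cells were taken as a further list of 5 tested genes, of which 1 rose at 21 days and 1 rose and 4 fell at 31 days, where 1.83% of all tested clusters rose at 21 days and 22.6% rose and 21.1% fell at 31 days. Pax5, a B-lineage transcription factor, had a log2 level of 6.16, 6.12 and 5.91 in MEC1 mice and 4.77, 4.74 and 4.67 in mice without MEC1 at 21 days, and 6.72, 6.65 and 7.21 in MEC1 mice and 4.70, 4.67 and 4.53 without MEC1 at 31 days. The groups did not overlap, and the rise was 1.34 (limma adjusted p = 0.00378) and 2.23 (adjusted p = 8.5e-05). Myc and E2f1, which drive proliferation, had -0.29 and -0.52 at 21 days, and fell by 1.47 and 1.31 at 31 days. E2f3 and Hdac3, a histone deacetylase, had -0.12 and -0.13 at 21 days, and fell by 0.96 and 0.83 at 31 days. With 1 array left out, the E2f3 call at 31 days was lost in 2 of 12 fits, without MEC1 replicate 3 (limma adjusted p = 0.0795) and without replicate 1 of the mice without MEC1 (0.0655).

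The named genes whose log2 levels were most like those of Mir16-2 over the 12 arrays were an immunoglobulin kappa variable segment, Tbx21 and Rny1 (Pearson's r 0.975, 0.968 and 0.968). Those for Mir15b were Slc12a2, Pou5f1-rs4 and Mmel1 (0.954, 0.938 and 0.937), those for Mir15a were Phxr4, Ccdc126 and Ctsf (0.865, 0.844 and 0.830), and those for the shared Dleu2/Mir16-1 cluster were Tsix, Inpp5f and Herc4 (0.989, 0.978 and 0.975). These genes were picked for the highest r among all tested named genes, on arrays that share their groups and their scaling, so the values describe a ranking.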
